A study of Mus musculus with 8 samples.

Results

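The transcripts described here are those of 34 mouse genes for ER chaperones and the unfolded protein response (UPR), chosen by name from a table of 22063 genes. They encode the folding machinery of the endoplasmic reticulum (ER), the stress sensors in its membrane, the machinery that removes misfolded proteins and the Sec61 channel. All 34 symbols were found, and 33 of the genes had enough reads to be tested among 10770 genes. The exception was Derl3, a derlin of the degradation channel, with no count in 7 libraries and 1 count in tranilast replicate 1.

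The table holds 8 RNA-seq libraries from wild-type (WT) mice, each labelled as liver, 4 titled Control and 4 titled Control+tranilast. Tranilast is an anthranilic acid derivative used against allergy, and the comparison asked which transcripts differed with it in mice on a high-fat and high-cholesterol (HFHC) diet. Both groups received the HFHC diet according to the series design, while the sample labels name neither diet, dose nor batch. In the methods of the study the mice of this model were male C57BL/6J, and tranilast or its sodium carboxymethylcellulose vehicle was given orally once a day over the later weeks of feeding. The methods give these mice as young adults on arrival. The dose given to the sequenced mice, and whether each library came from its own animal, are not stated, so that the p-values below measure the spread between these libraries.

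Library totals ran from 12053036 to 15618787 counts in all, and 3 counts, up to which a count of 0 leaves room, were between 0.192 and 0.249 CPM, the counts scaled to a library total. That limit covers counting error only. The label of liver was not borne out by marker genes. The 11 hepatocyte markers together held at most 0.000191% of the counts of any library, and the albumin gene Alb was counted at most 2 times in a library. Lyz2, the lysozyme gene of myeloid cells, had between 51267 and 68975 counts. Csf1r, the receptor of the macrophage growth factor M-CSF, had between 29718 and 38395. No library held a count of Clec4f, Vsig4 or Timd4, the markers of the Kupffer cells that reside in liver. The values below therefore describe RNA rich in macrophage transcripts and cannot be assigned to hepatocytes. The diet, strain and dosing given above come from the description of these samples as liver, and the counts cannot check them. The summed level of the 14 macrophage markers was 11261 to 12008 CPM in the control group and 10497 to 11222 CPM in the tranilast group. Without TMM scaling, the same markers held between 1.09% and 1.17% of the counts of each library, over both groups. Of 12 tested markers 3 were higher and 7 lower, where 28.2% of all genes tested were higher and 28.8% lower. The part of these markers in the results was not tested. Of the 8 plasma-cell markers, which stand for a cell type with a large ER, the summed level was between 85.1 and 90.1 CPM in the control group and between 94.3 and 106 CPM in the tranilast group. Without TMM scaling that sum was between 0.00819% and 0.0110% of the counts of each library, over both groups. Among these markers Jchain and Mzb1 had at most 1 and 3 counts, while Sdc1 had 305 to 370. The highest gene of the list was Ighm, with 820 to 1109. Of the 3 tested markers 2 were called higher and 0 lower, and their part in the results was not tested.

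Proteins that enter the ER are folded by chaperones, cross-linked by disulfide isomerases and checked by lectins that read their sugar chains. When misfolded proteins accumulate, the sensors IRE1, PERK and ATF6 are activated: IRE1 splices the mRNA of the transcription factor XBP1, PERK slows translation and favours that of ATF4, and ATF6 is cut to release a transcription factor. XBP1 and ATF6 raise chaperone and degradation genes, and in liver this response is tied to secretion and lipid synthesis, while in macrophages XBP1 takes part in cytokine production. Gene-level counts show the amount of a transcript, and they measure neither the splicing of Xbp1 nor the activity of a sensor.

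Promoters of these genes are known for elements through which ATF6 and XBP1 act, and these were looked for in RefSeq windows of 250 bases before to 50 after the start site, on GRCm38.p6. The letters searched, on both strands, were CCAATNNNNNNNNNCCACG for the ER stress response element (ERSE), ATTGGNCCACG for ERSE-II, TGACGTG for the core of the UPR element, and TGATGNAA for the ATF4 element CARE. Of the 34 genes, 28 had windows, 29 in number. ERSE was found for 9 genes, in 31.0% of their windows against 0.119% of all 32851 windows. ERSE-II was found for Herpud1 and Dnajb11, in 6.90% against 0.0365%. The list was chosen to hold known targets of ATF6 and XBP1, so a share above that of all windows is built into the choice and is not a test. The UPR element core was found once, for Hspa5, against 2.01% of all windows, and CARE once, for Herpud1, against 3.97%. The 6 sequences below are shown because their genes were called in the comparison that follows and kept direction and call in every alternative fit. Capitals mark the ERSE, or in Herpud1 the ERSE-II, read 5′ to 3′ along the strand of the gene, so that an element on the other strand begins with CGTGG. They lie, in order, at chr2:34772020-34772048 (+), chr19:6046507-6046575 (+), chr8:94386352-94386412 (+), chr10:86705508-86705681 (-), chr8:84847050-84847118 (-) and chr15:88819495-88819563 (+).
Hspa5: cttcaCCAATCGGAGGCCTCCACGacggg
Syvn1: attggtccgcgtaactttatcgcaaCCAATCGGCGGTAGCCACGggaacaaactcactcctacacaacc
Herpud1: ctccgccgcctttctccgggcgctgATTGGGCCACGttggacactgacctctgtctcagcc
Hsp90b1: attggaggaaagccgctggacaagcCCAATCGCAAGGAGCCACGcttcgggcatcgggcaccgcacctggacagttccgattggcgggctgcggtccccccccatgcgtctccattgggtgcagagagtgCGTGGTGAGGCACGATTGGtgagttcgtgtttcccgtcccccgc
Calr: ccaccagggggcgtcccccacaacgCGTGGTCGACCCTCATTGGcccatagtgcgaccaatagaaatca
Creld2: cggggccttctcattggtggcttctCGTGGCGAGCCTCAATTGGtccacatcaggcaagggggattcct

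Hsp90b1 held 2 copies of the ERSE, and the Hspa5 element lay in an exon of a longer GENCODE transcript. Among the tested genes with an ERSE, Hspa5 and Syvn1 were higher with tranilast, Hsp90b1, Calr, Canx, Pdia6 and Creld2 were lower, and Dnajc3 was not called. The ERSE-II genes went apart, Herpud1 higher and Dnajb11 lower. A match describes letters in a window and does not show a factor bound there.

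With tranilast, the 33 genes split evenly: 13 were higher, 13 were lower and 7 were not called. A gene was called where the quasi-likelihood test of edgeR gave a p-value under 0.05 after Benjamini-Hochberg adjustment over all genes tested. The background was wide, since 57.0% of all genes tested were called, 28.2% higher and 28.8% lower. The groups did not overlap for 12 genes that were higher and 13 that were lower, where 49.8% of all genes tested did not overlap. The shares over all genes were not matched to the 33 genes by count. The changes were small. The log2 fold changes of the 33 genes ran from -0.35 for P4hb to 0.90 for Dnajb9, with a median of 0.04 beside 0.01 for all genes tested. No gene passed the study's threshold of 1.5 on the log2 scale, at an adjusted or an unadjusted p under 0.05 and by edgeR, DESeq2 or limma-voom, against 1.11% of all genes. At 0.5 on the log2 scale, Dnajb9, Ern1, Edem2 and Herpud1 passed, all of them higher, where 9.09% of all genes tested passed as higher and 6.06% as lower. As in any bulk sample, fewer cells of a type and less RNA per cell cannot be told apart.

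**Figure D1:**
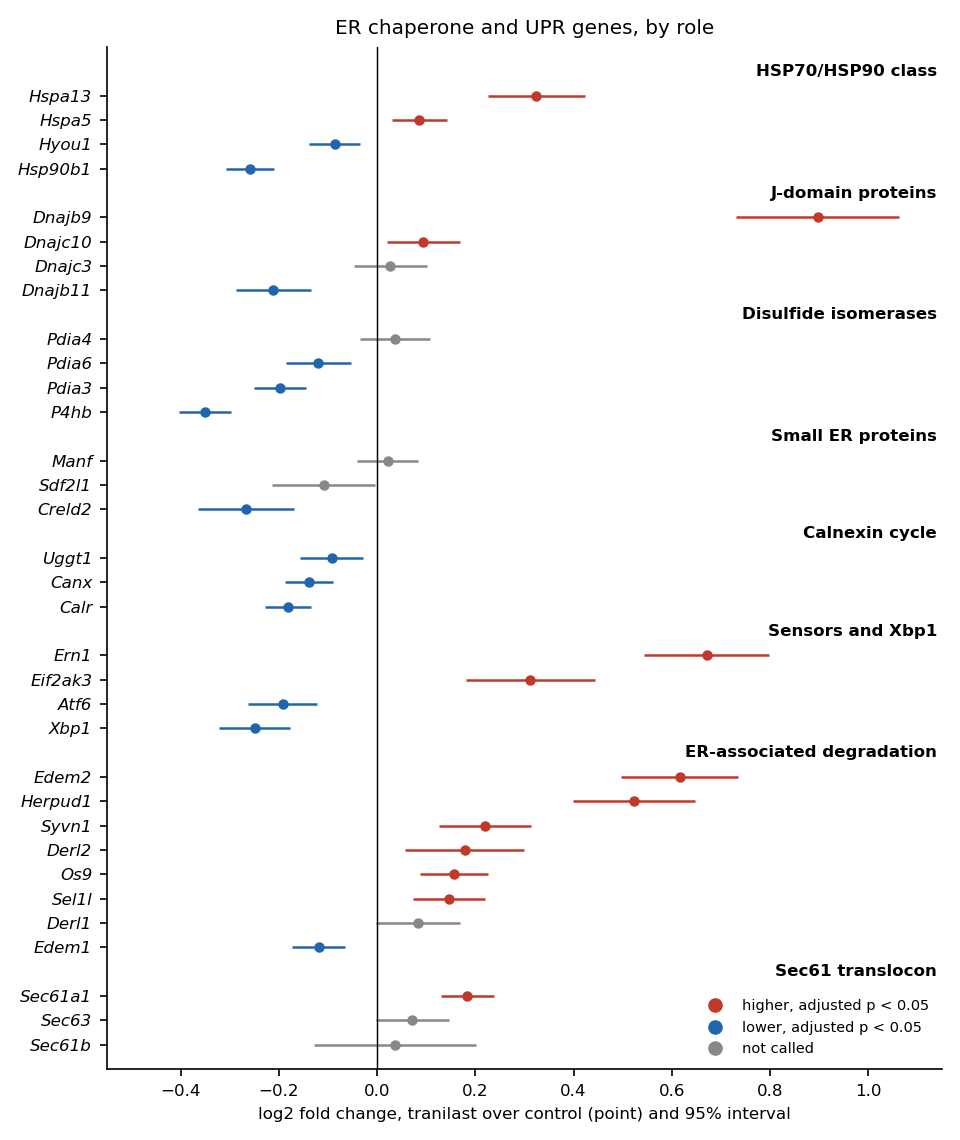
Each point is the log2 fold change of a gene, tranilast over control (4 libraries each), on the horizontal axis, and its bar is the 95% interval of the edgeR fit before adjustment for many genes. Genes are grouped by role, with red for higher, blue for lower and grey for not called, and Dnajb9, Ern1, Edem2 and Herpud1 lie farthest from 0.

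Library scaling moved the lower calls. TMM, the scaling used throughout, assumes that most genes do not change. Scaled to the library total alone, the median of all genes moved from 0.01 to 0.12 on the log2 scale and that of the 33 genes from 0.04 to 0.15, so the 33 genes moved along with the rest. With the library total alone 18 of the 33 genes were called higher and 7 lower, and with upper-quartile factors 18 and 9. The share of higher genes among all called genes was 49.5%, 70.9% and 62.6% in the same order of TMM, library total and upper quartile. Dnajc3, Pdia4, Manf, Derl1 and Sec63 became called higher with the library total, at log2 fold changes of 0.14 to 0.20. Hyou1, Sdf2l1 and Uggt1 changed direction with the library total, to log2 fold changes of 0.03, 0.01 and 0.02. In every fit that was run, 11 genes stayed higher and called, namely Hspa5, Hspa13, Dnajb9, Ern1, Eif2ak3, Edem2, Os9, Herpud1, Sel1l, Syvn1 and Sec61a1. Hsp90b1, P4hb, Pdia3, Creld2 and Calr, 5 genes in number, stayed lower and called. With the library total alone their log2 fold changes were -0.14, -0.23, -0.08, -0.15 and -0.07, in that order, smaller falls than with TMM.

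**Figure D2:**
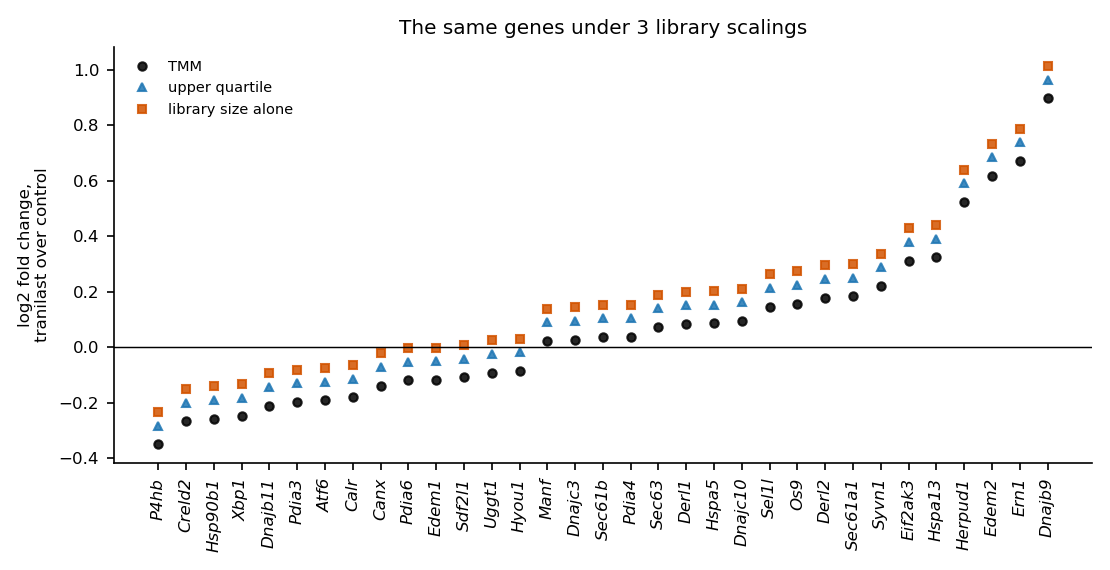
The log2 fold change of each of the 33 genes (vertical axis, tranilast over control, 4 libraries each) is drawn under TMM (circles), upper-quartile factors (triangles) and library size alone (squares), ordered by the TMM value. The points shift together, and for Hyou1, Sdf2l1 and Uggt1 the squares lie above 0 and the circles below it.

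Of the HSP70 and HSP90 class chaperones, Hspa13 and Hspa5 were higher with tranilast and Hsp90b1 and Hyou1 lower, though Hyou1 turned to a log2 fold change of 0.03 with the library total alone. Hspa5 (ENSMUSG00000026864, chromosome 2 of GRCm38, 34771970 to 34777547, strand +) encodes BiP, the ER HSP70 that binds unfolded chains and holds the sensors inactive. It was at 1787, 1786, 1646 and 1818 CPM in control replicates 1 to 4 and at 1889, 1884, 1832 and 1866 CPM in tranilast replicates 1 to 4. Every tranilast library lay above every control library, and control replicate 3 lay below the other controls. The change was 0.09 on the log2 scale (SE 0.026, adjusted p = 0.0099, edgeR), a 1.06-fold level. Without control replicate 3 it was 0.05 (adjusted p = 0.0376, edgeR, and 3.3e-06 to 0.038 over its alternatives), and with the library total alone it was 0.20. Hsp90b1 (ENSMUSG00000020048, chromosome 10 of GRCm38, 86690209 to 86705509, strand -), which encodes GRP94, the HSP90 of the ER and a chaperone of Toll-like receptors and integrins, went the other way. Its control libraries had 1721, 1714, 1634 and 1694 CPM and its tranilast libraries 1412, 1413, 1454 and 1375 CPM, with no overlap. The log2 fold change was -0.26 (SE 0.023, adjusted p = 2.6e-08, edgeR). A processed transcript and a pseudogene overlap exons of Hsp90b1 in the annotation, and neither had a row of counts. Hspa13, an atypical HSP70 of microsomes, rose from 70.9 ± 3.97 to 88.8 ± 3.20 CPM (SD, n = 4), and its log2 fold change was 0.32 (SE 0.047). Hyou1, the GRP170 exchange factor of BiP, went from 875 ± 26.9 to 824 ± 9.90 CPM (SD, n = 4), and its log2 fold change was -0.09 (SE 0.025).

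J-domain proteins bring substrates to BiP and start its ATPase cycle, and the largest rise of the 33 genes was among them. Dnajb9 (ENSMUSG00000014905, chromosome 12 of GRCm38, 44205559 to 44210326, strand -) encodes ERdj4, which also helps BiP to hold IRE1 inactive. Its control libraries were at 16.2, 16.5, 14.3 and 15.1 CPM, and its tranilast libraries at 27.3, 28.4, 27.9 and 31.9 CPM. The lowest tranilast value was well above the highest control value, and tranilast replicate 4 was the highest of all. Its log2 fold change was 0.90 (SE 0.079, adjusted p = 2.3e-08, edgeR), or 1.86-fold. Dnajb11, the BiP partner ERdj3, had 196, 197, 196 and 209 CPM in the controls and 169.6, 176, 180.2 and 165 CPM with tranilast, where all 4 values were lower. Its log2 fold change was -0.21 (SE 0.036, adjusted p = 7.4e-05, edgeR), and the call was lost in the fits of deposited FPKM. Dnajc10, the disulfide reductase ERdj5, was narrowly called higher, with 187 ± 7.22 against 199.6 ± 5.68 CPM (SD, n = 4), overlapping groups and a change of 0.09 on the log2 scale (SE 0.035). Its adjusted p of 0.031 (edgeR) became 0.11 without control replicate 3, 0.080 without control replicate 4, 0.072 without tranilast replicate 1 and 0.074 without tranilast replicate 4, in a range of 5.9e-05 to 0.11 over all alternatives. Dnajc3, the co-chaperone p58IPK that also inhibits PERK, was not called, at 148 ± 5.63 and 151 ± 1.47 CPM (SD, n = 4), with a 95% interval of -0.05 to 0.10 for its log2 fold change.

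**Figure D3:**
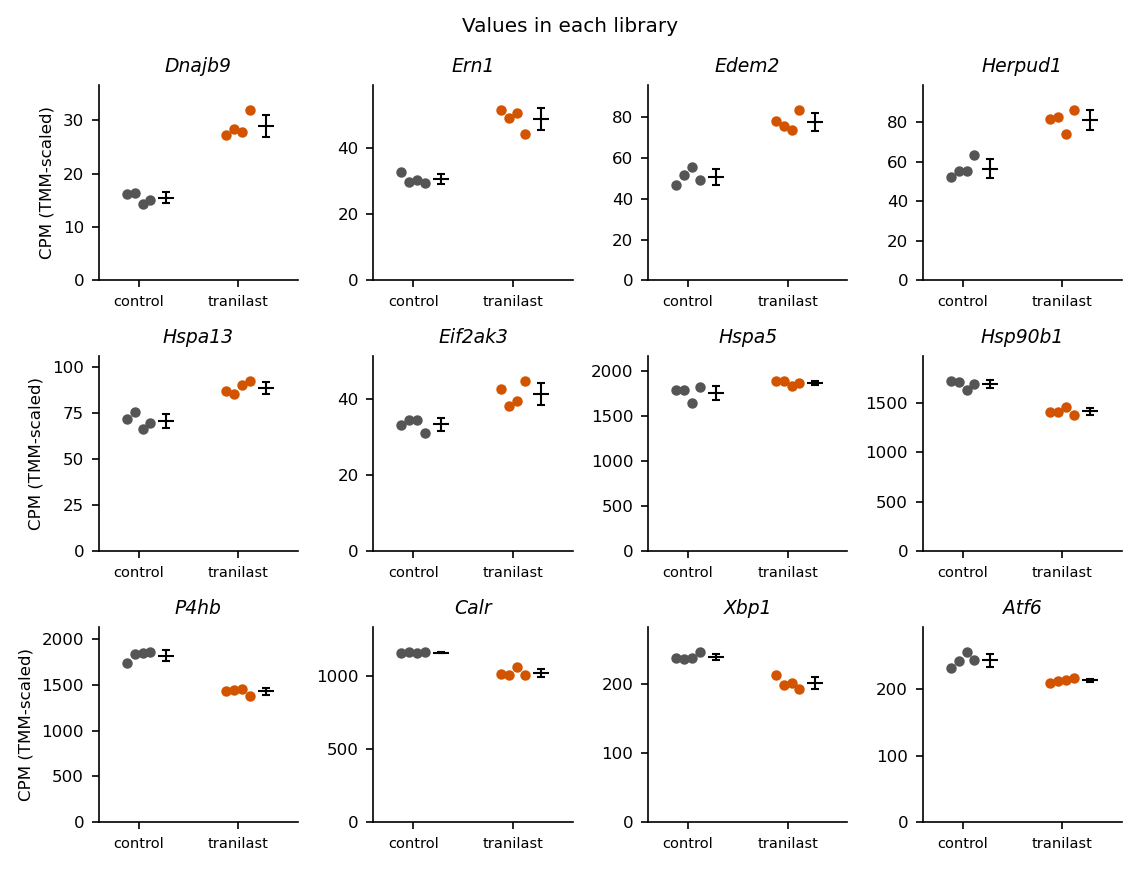
Each panel gives the CPM (TMM-scaled, vertical axis from 0) of one gene in the 4 control libraries (grey points) and the 4 tranilast libraries (orange points), with the mean and SD beside them in black. In the 12 genes drawn no tranilast value lies within the range of the control values.

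Of the disulfide isomerases, P4hb, Pdia3 and Pdia6 were lower with tranilast and Pdia4 was not called, though Pdia4 was called higher with the library total alone. P4hb (ENSMUSG00000025130, chromosome 11 of GRCm38, 120560298 to 120573253, strand -) encodes protein disulfide isomerase itself, which is also a subunit of prolyl 4-hydroxylase and of the microsomal triglyceride transfer protein complex. Its level was 1731, 1838, 1845 and 1855 CPM in the control libraries and 1428, 1442, 1456 and 1376 CPM in the tranilast libraries, so that even the low control replicate 1 was above all tranilast values. Its log2 fold change of -0.35 (SE 0.025, adjusted p = 1.3e-09, edgeR) was the lowest of the 33 genes. Pdia3, the isomerase that works with calnexin and calreticulin, had 938, 903, 894 and 929 CPM in the controls and 795, 799, 827 and 774 CPM with tranilast. These groups did not overlap, and the log2 fold change was -0.20 (SE 0.025, adjusted p = 2.8e-06, edgeR). Pdia6 went from 495 ± 9.40 to 456 ± 21.5 CPM (SD, n = 4), and its change of -0.12 on the log2 scale (SE 0.032) became -0.05 with upper-quartile factors and -0.003 with the library total, no longer called. Pdia4, or ERp72, was at 228 ± 8.61 and 234 ± 6.61 CPM (SD, n = 4), with a 95% interval of -0.04 to 0.11.

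Calreticulin, calnexin and the glucosyltransferase UGGT1 form the cycle that holds glycoproteins until they are folded, and the transcripts of all of them were lower, Uggt1 turning to 0.02 on the log2 scale with the library total alone. Calr (ENSMUSG00000003814, chromosome 8 of GRCm38, 84841850 to 84846934, strand -) was at 1155, 1163, 1157 and 1164 CPM in the controls, the tightest group of the 33 genes. With tranilast it was at 1014, 1006, 1062 and 1008 CPM, all lower, with replicate 3 above the rest. The fitted log2 fold change was -0.18 (SE 0.023, adjusted p = 1.8e-06, edgeR). Canx went from 989.8 ± 24.8 to 899 ± 9.53 CPM (SD, n = 4), and its log2 fold change of -0.14 (SE 0.023) became -0.02 and was not called with the library total. Uggt1, which tags misfolded glycoproteins for another round, went from 264 ± 8.27 to 247 ± 3.64 CPM (SD, n = 4), and its log2 fold change was -0.09 (SE 0.031). Its adjusted p was 0.016 (edgeR) and became 0.068 without control replicate 4, in a range of 0.0095 to 0.76 over all alternatives.

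Of the small soluble proteins that are known to be induced by ER stress, Creld2 was lower and Sdf2l1 and Manf were not called, though Manf was called higher with the library total alone. Creld2, an ER-resident disulfide isomerase-like protein, had 90.5, 106, 99.3 and 99.2 CPM in the controls and 82.0, 80.8, 84.2 and 81.4 CPM with tranilast. The tranilast values were close together and all below the controls, and the log2 fold change was -0.27 (SE 0.046, adjusted p = 8.2e-05, edgeR). Sdf2l1, which cycles with ERdj3 and BiP, was at 99.8 ± 6.04 and 92.6 ± 5.13 CPM (SD, n = 4), giving a log2 fold change of -0.11 (SE 0.050, adjusted p = 0.070, edgeR) that was called without control replicate 1, at -0.15 (adjusted p = 0.019, edgeR, in a range of 0.019 to 0.91), and turned to 0.01 with the library total. Manf, a secreted survival factor kept in the ER by BiP, was at 219 ± 1.75 and 223 ± 4.38 CPM (SD, n = 4), with a 95% interval of -0.04 to 0.08 for its log2 fold change. Exons of Manf overlap those of Dcaf1 and Rbm15b in the annotation.

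The transcripts of the sensors moved apart, with those of IRE1 and PERK higher and those of ATF6 and XBP1 lower. Ern1 (ENSMUSG00000020715, chromosome 11 of GRCm38, 106394650 to 106487852, strand -) encodes IRE1, the kinase and RNase of the ER membrane. It was at 32.9, 29.7, 30.5 and 29.6 CPM in the controls and at 51.6, 49.0, 50.6 and 44.3 CPM with tranilast, a gap wider than the spread of either group. Its log2 fold change was 0.67 (SE 0.060, adjusted p = 3.1e-08, edgeR), or 1.59-fold. Eif2ak3 (ENSMUSG00000031668, chromosome 6 of GRCm38, 70844515 to 70905245, strand +) encodes PERK, the kinase of eIF2alpha in the ER membrane. Its control values were 33.1, 34.5, 34.4 and 31.0 CPM and its tranilast values 42.7, 38.1, 39.5 and 44.6 CPM, which did not overlap. The log2 fold change was 0.31 (SE 0.062, adjusted p = 0.00035, edgeR). Xbp1 (ENSMUSG00000020484, chromosome 11 of GRCm38, 5520659 to 5525893, strand +), the transcript that IRE1 cuts, had 237, 236, 238 and 247 CPM in the controls and 213, 199, 202 and 193 CPM with tranilast. All tranilast values were lower, and the log2 fold change was -0.25 (SE 0.034, adjusted p = 5.7e-06, edgeR). Atf6 (ENSMUSG00000026663, chromosome 1 of GRCm38, 170704674 to 170867771, strand -) was at 232, 242, 256 and 245 CPM in the controls and 210.2, 212, 215 and 217 CPM with tranilast, also without overlap. Its log2 fold change was -0.19 (SE 0.033, adjusted p = 8.4e-05, edgeR), and both lower genes lost the call in the fits of deposited FPKM, at a log2 fold change of -0.07 each. With the library total alone Atf6 also lost it, at -0.08 (adjusted p = 0.0578, edgeR, and 2.9e-07 to 0.14 over its alternatives), while Xbp1 kept it at -0.13.

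ER-associated degradation (ERAD) returns misfolded proteins to the cytosol for the proteasome. Of its 8 tested genes 6 were higher, Edem1 was lower and Derl1 was not called. Among all genes tested, 28.2% were higher and 28.8% lower. Edem1 lost its call with the library total, where Derl1 gained one. Edem2 (ENSMUSG00000038312, chromosome 2 of GRCm38, 155701677 to 155729475, strand -) encodes the protein that starts mannose trimming of misfolded glycoproteins. Its controls were at 46.7, 51.7, 55.8 and 49.1 CPM and its tranilast libraries at 78.2, 75.9, 73.7 and 83.7 CPM, far apart. This gave a log2 fold change of 0.62 (SE 0.057, adjusted p = 4e-08, edgeR). Edem1, which trims further, was the only lower gene of the group, with 405, 398, 394 and 394 CPM in the controls and 366, 371, 369.6 and 359 CPM with tranilast. The groups did not overlap, and its log2 fold change of -0.12 (SE 0.026, adjusted p = 0.00074, edgeR) became -0.05 with upper-quartile factors and -0.002 with the library total, not called in either.

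Herpud1 (ENSMUSG00000031770, chromosome 8 of GRCm38, 94386438 to 94395377, strand +) encodes HERP, which assembles the retrotranslocation complex and is a known target of both ATF6 and ATF4. It had 52.2, 55.2, 55.1 and 63.3 CPM in the controls and 81.5, 82.7, 74.1 and 86.0 CPM with tranilast. Control replicate 4 was the highest control and still below every tranilast library. The log2 fold change was 0.52 (SE 0.059, adjusted p = 5.4e-07, edgeR). Syvn1, the ubiquitin ligase HRD1, had 61.5, 59.1, 60.7 and 61.3 CPM in the controls and 68.7, 72.7, 73.5 and 67.9 CPM with tranilast, a log2 fold change of 0.22 (SE 0.044) without overlap. Its partner Sel1l rose from 204 ± 7.67 to 226 ± 6.69 CPM (SD, n = 4), and its log2 fold change was 0.15 (SE 0.035). Os9, the lectin that hands substrates to that complex, rose from 137 ± 1.79 to 153 ± 3.33 CPM (SD, n = 4), and its log2 fold change was 0.16 (SE 0.033). The derlins are channel proteins of the same pathway. Derl2 went from 41.3 ± 3.0 to 46.7 ± 1.69 CPM (SD, n = 4), with an adjusted p of 0.013 (edgeR) that became 0.062 without control replicate 3, in a range of 0.00026 to 0.062. Derl1 was at 157 ± 8.81 and 167 ± 5.81 CPM (SD, n = 4) and was not called (adjusted p = 0.092, edgeR), but was called at 0.020 without control replicate 2, in a range of 0.00037 to 0.32. Exons of Derl2 and Syvn1 overlap those of Mis12 and Mrpl49 on the opposite strand, both of which have counts of their own. The strand setting of the counting is not stated, so reads of each pair may be shared.

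Of the Sec61 translocon, the channel through which new chains enter the ER, only the alpha subunit passed the test with TMM scaling. Sec61a1 (ENSMUSG00000030082, chromosome 6 of GRCm38, 88503579 to 88518905, strand -) had 449, 445, 433 and 452 CPM in the controls and 493, 513, 507 and 506 CPM with tranilast, all higher. It changed by 0.18 on the log2 scale (SE 0.026, adjusted p = 8.1e-06, edgeR). Sec61b, the beta subunit, varied most among libraries of a group, from 54.9 to 76.9 CPM in the controls and from 61.1 to 74.3 CPM with tranilast. Its log2 fold change of 0.04 had a 95% interval of -0.13 to 0.20 and turned to -0.05 without control replicate 4. Sec63, a J-domain partner of the channel, was at 134 ± 1.82 and 140.5 ± 4.69 CPM (SD, n = 4), with a 95% interval of -0.002 to 0.15, and was called without tranilast replicate 4 (adjusted p = 0.045, edgeR, in a range of 0.00017 to 0.23).

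Single genes were compared as well on log2(CPM + 0.1) by permuting the libraries (exact, two-sided), which with 4 libraries a group cannot give a p below 0.0286. At that size a p under 0.05 is given only by groups that do not overlap. The 25 of 33 genes at that level are therefore those whose groups did not overlap, beside 49.8% of all genes tested. That share is over genes of all levels, not matched to the 33 by count, and genes with more counts are measured more precisely.

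Levels are compared between genes only per transcript length, as the mean deposited FPKM over the 8 libraries. Hspa5 was highest with 656, followed by P4hb with 564, Hsp90b1 with 548, Calr with 498 and Pdia3 with 309. Ern1 was lowest of the tested genes with 7.10, after Eif2ak3 with 8.38 and Dnajb9 with 9.13. With TMM the abundant genes were mostly lower with tranilast and the scarce ones mostly higher. The calls and medians of the split moved with the scaling, while the rank correlation given below hardly did. Among the 17 genes of highest FPKM, 2 were higher and 11 lower, with a median log2 fold change of -0.12. Among the other 16 genes, 11 were higher and 2 lower, with a median of 0.17. Over all genes tested, 28.2% were higher and 28.8% lower. With the library total alone the 17 genes had 4 higher and 7 lower, at a median near 0, and the other 16 had 14 higher and 0 lower, at a median of 0.28. In the fits of deposited FPKM the 17 had 4 higher and 5 lower. Across the 33 genes Spearman's rho between level and log2 fold change was -0.69 with TMM, and across all 10770 genes tested it was -0.34. For the 33 genes it was also -0.69 with upper-quartile factors and with the library total alone, and -0.68 in the fits of deposited FPKM. These are descriptions across genes, which share the same libraries and are not independent replicates. Together the 34 genes took between 1.27% and 1.32% of the counts of each library, in both groups alike.

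**Figure D4:**
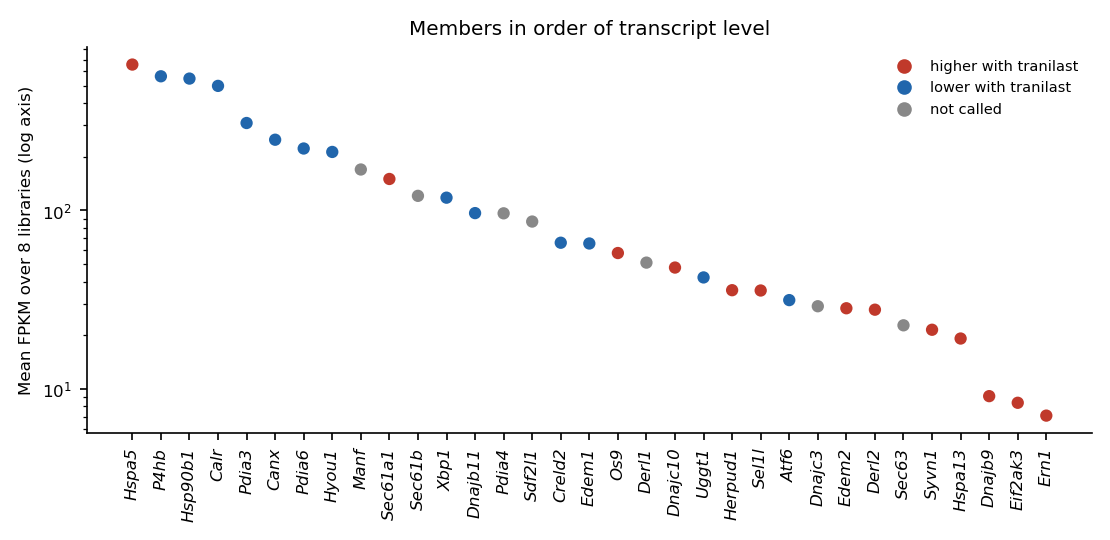
The mean FPKM over the 8 libraries (vertical axis, log scale) of the 33 tested genes, in falling order, is coloured by the call, with red for higher with tranilast, blue for lower and grey for not called. The calls are those with TMM scaling, under which blue points gather at the abundant end and red points at the scarce end, with Hspa5 and Sec61a1 as the higher genes among the 17 most abundant.

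Ratios of counts of a pair of genes within a library do not depend on library scaling, and pairs of related function that had moved apart were chosen after their values were seen, so no test is given. The ratio of Hspa5 to Hsp90b1, the main HSP70 and HSP90 of the ER, ran from 1.01 to 1.07 among the controls and from 1.26 to 1.36 with tranilast. Ern1 to Xbp1, the sensor and its substrate, was between 0.120 and 0.138 in the controls and between 0.229 and 0.250 with tranilast. For Edem2 to Edem1 the ratio was between 0.115 and 0.142 in the controls and between 0.199 and 0.233 with tranilast. In each pair the ranges of the groups lay apart, so the counts of its genes moved by unequal amounts whatever the scaling.

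The rest of the ER machinery was also divided. Together, 8 lists of other ER and UPR genes, with the kinases of eIF2alpha and the targets of IRE1 decay among them, held 203 tested genes, of which 77, or 37.9%, were higher and 47, or 23.2%, were lower, beside 28.2% and 28.8% of all genes. Apart from Bloc1s1, genes named in this paragraph are extremes among called genes with a mean count of at least 50. Of the UPR regulators and of the eIF2alpha list a part is named below, without that rule. Among 36 other folding factors 12 were higher and 8 lower, with a median log2 fold change of 0.05. Dnajb14 was highest at 0.59 (SE 0.049), and Ero1a, the oxidase that recharges disulfide isomerases, was lowest at -0.56 (SE 0.031). Its paralog Ero1b was higher at 0.44 (SE 0.046), and the BiP exchange factor Sil1 at 0.49 (SE 0.070). Of 37 other ERAD genes 15 were higher and 5 lower, with a median of 0.07. Svip at 0.58 (SE 0.18), Rhbdd1 at 0.50 (SE 0.050) and Fam8a1 at 0.49 (SE 0.073) led them, and the ubiquitin-conjugating enzyme Ube2j2 was lowest at -0.25 (SE 0.046). Of 32 N-glycosylation genes 11 were higher and 9 lower, from the mannosyltransferase Alg2 at 0.91 (SE 0.067) to Alg3 at -0.29 (SE 0.062). Of 26 other translocation genes 9 were higher and 8 lower, and of 33 genes of ER export and retrieval 11 were higher and 9 lower. In the latter list the COPII coat gene Sec24d was at 0.57 (SE 0.047) and the cargo receptors Tmed10 and Lman2 were at -0.31 (SE 0.031) and -0.29 (SE 0.030). Of the genes that IRE1 is known to cut, Hgsnat was higher at 0.46 (SE 0.053), and Bloc1s1, at 0.06, was not called.

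Of 21 other UPR regulators tested, 7 were higher and 6 lower, with a median of 0.04, beside 28.2% and 28.8% of all genes. Wfs1, an ER membrane protein that restrains ATF6, was higher at 1.01 (SE 0.17), from 3.69 to 7.43 CPM, and the ER stress factor Creb3l2 at 0.66 (SE 0.080). Of the Golgi proteases that cut ATF6, Mbtps1 was higher at 0.27 (SE 0.035) and Mbtps2 was lower at -0.26 (SE 0.046). Atf6b was lower at -0.16 (SE 0.034), and the cell death gene Bak1 at -0.57 (SE 0.038).

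The list of the eIF2alpha kinases, eIF2alpha itself and the ATF4 branch was mostly higher. Of its 16 tested genes 11 were higher and 2 lower, beside 28.2% and 28.8% of all genes tested. The median log2 fold change was 0.41. With the library total alone 13 were higher and 2 lower, where 4613 and 1893 of all 10770 genes tested were. The translation-controlled factor Atf4 was higher at 0.46 (SE 0.035), from 149 to 205 CPM. Also higher were Sesn2 at 1.91 (SE 0.081), Trib3 at 1.84 (SE 0.14) and Ddit3, which encodes CHOP, at 1.34 (SE 0.14). Chac1 was at 1.32 (SE 0.22), Atf5 at 1.08 (SE 0.062) and Atf3 at 0.71 (SE 0.10). These are known partners or targets of ATF4, whose activity was not measured. Sesn2 and Trib3 were past 1.5 on the log2 scale. Eif2s1, the eIF2alpha subunit, was lower at -0.32 (SE 0.033), and the RNA-activated kinase Eif2ak2 at -0.65 (SE 0.11). Several kinases act on eIF2alpha, and PERK activity was not measured here. Among 27 cytosolic and mitochondrial chaperones, 22 were called lower and the other 5 were not called, with a median of -0.38. Of all genes tested, 28.8% were called lower. Hsp90ab1, the cytosolic counterpart of Hsp90b1, was at -0.55 (SE 0.018). With upper-quartile factors or the library total, 2 genes of that list were called higher. No test of a difference between these lists was made.

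**Figure D5:**
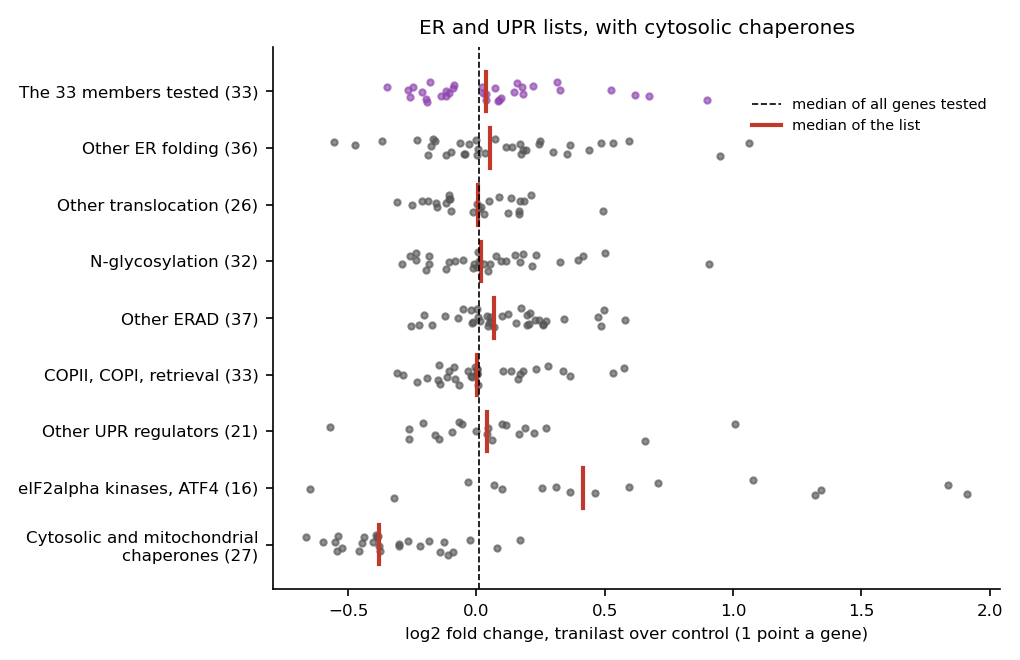
Each point is the log2 fold change of a gene, tranilast over control (horizontal axis, 4 libraries each), in the 33 genes and in related lists (rows, with the number of genes tested). The red bar is the median of a list and the dashed line that of all genes tested, and the medians of the ER lists lie near that line, that of the eIF2alpha kinases and ATF4 list to the right and that of the cytosolic and mitochondrial chaperones to the left.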

How the data were processed

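For each gene and library the authors deposited a count, estimated and therefore sometimes fractional (an estimated count), and an FPKM value, which divides by transcript length and library depth. The libraries were poly-A enriched and paired-end in the methods of the study, which name the HiSeq X-ten, while the labels name a Novaseq6000. The aligner, counter, genome build and strand setting are not given in the sources used here.

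Counts were rounded, genes filtered with filterByExpr, libraries scaled by TMM, and the groups compared in edgeR 4.0.16 (R 4.3.3) by the quasi-likelihood test over 10770 genes, without covariates. FPKM was used for levels and as an alternative fit in limma 3.58.1. The methods of the study name limma and an absolute log2 fold change of 1.5, which were run as an alternative tool and a second threshold. SE is that of the edgeR fit, and CPM is TMM-scaled apart from the limit of 3 counts. Python 3.11.15 with scipy 1.17.1 gave the permutation tests. Control libraries held 14585153 to 15618787 counts and tranilast libraries 12053036 to 14679386.

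Alternatives were RLE, upper-quartile and library-size scaling, DESeq2 1.42.0, limma-voom, limma on log2(FPKM + 1) or log2(FPKM + 0.1), no filter, 10 counts in every library, removal of GC content and length trends, a replicate block, each library left out, and other thresholds. On simulated data edgeR recovered 196 of 199 genes changed by a log2 fold change of 1, with 9 false calls. That simulation changed 200 genes under a common dispersion. It did not cover smaller changes or data in which 57.0% of genes are called. Libraries of a group differed beyond counting noise (chi-square per degree of freedom 2.51 to 5.46).

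The 34 genes and the lists were chosen with earlier results of these data known. Genes that could be named were the 34, the regulators of the UPR, the eIF2alpha list and leading markers. Of each other list these were the 3 highest and 3 lowest called genes with a mean count of at least 50. Only a part of the genes from these lists is named, and Bloc1s1 was named in addition. Of 354 listed genes 352 were found. Gene coordinates (1-based) were taken from GENCODE M21 of GRCm38 by identifier, and promoter windows are those of RefSeq on GRCm38.p6.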

Additional observations from a re-analysis of the deposited data

Results flagged for a closer look

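The search covered 104 genes, the 34 and the genes of the other lists that could be named. Each group of 4 libraries was searched for a highest or lowest library set apart from the rest. The rule was Dixon's criterion, which chance meets in about 1 in 20 groups. It was met in 12 of 208 groups. Among the 34 genes, Dnajb11 was at 209 CPM in control replicate 4, against 196 to 197 CPM in the other controls, and P4hb was at 1731 CPM in control replicate 1, against 1838 to 1855. Pdia6 was at 481 CPM in control replicate 1, against 498 to 502, and Calr was at 1062 CPM in tranilast replicate 3, against 1006 to 1014. The log2 fold changes of these genes kept their sign and their call when the library in question was left out.

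Of the control libraries, replicate 2 was high for Ptpn1 (64.5 against 59.5 to 60.2 CPM) and low for Ubqln1 (217 against 234 to 238), and replicate 1 was low for Alg3 (39.3 against 40.6 to 40.7). Tranilast replicate 4 was low for Map3k5 (35.04 against 42.6 to 43.4 CPM) and high for Nfyc (47.4 against 45.2 to 45.5) and Ero1a (234 against 224 to 225). Tranilast replicate 2 was low for Nck1 (24.7 against 27.7 to 28.1 CPM) and high for Cebpb (136 against 121 to 124).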

How the results depend on the processing

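RLE factors, DESeq2, limma-voom, a minimum of 10 counts and the GC content and length correction changed no call among the 33 genes, and omitting the filter added Sdf2l1 as lower. The 13 higher and 13 lower calls became 4 and 0 when a log2 fold change of 0.5 was also required, and the 77 and 47 calls of the other ER and UPR lists became 17 and 3. Scaling mattered most for lower calls: the 13 became 7 with library size alone and 5 with either FPKM fit, and the 47 became 25 with upper-quartile factors, 18 with library size alone and 16 with either FPKM fit, while the 77 higher became 122 with library size alone. The median log2 fold change of the 33 genes, 0.04, became 0.10 with upper-quartile factors, 0.15 with library size alone and 0.16 with either FPKM fit, as the median of all genes moved from 0.01 to 0.08, 0.12 and 0.10 to 0.12. Under library size, log2(FPKM + 1) and log2(FPKM + 0.1), Hyou1 turned to log2 fold changes of 0.030, 0.050 and 0.050, Sdf2l1 to 0.0082, 0.0079 and 0.0080, and Uggt1 to 0.024, 0.014 and 0.014, and Sec61b turned to -0.050 without control replicate 4. The construction of these scalings moves all genes together. With each library left out in turn, higher calls ran from 11 to 14 and lower calls from 12 to 14. Same-numbered libraries did not deviate together (correlations of -0.06, -0.04, 0.01 and 0.11, and no library correlated best with its own number). No pairing by number was therefore seen, and the sample titles state none. With 4 libraries a group a weak pairing could be missed. With the replicate block 13 genes were higher and 14 lower, Sdf2l1 being the added call, and of the other lists 76 were higher and 44 lower. Genes with few counts, such as Dnajb9 with 214 to 489, are less precise than Hspa5 with 22934 to 28603, and Derl3 was too scarce to test.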
